A study of Mus musculus with 4 samples.

Results

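Folr2, Cbr2, Fcrls, Gpr34, Mrc1, Cd163, Igf1, Tmem176a, Tmem176b and Ms4a7 are 10 genes often read as marks of resident-like tissue macrophages. They were chosen by name, with earlier results of these data in view, and all 10 were found among the 19059 genes counted. They are described here in the macrophages, monocytes and dendritic cells of tumors of MC38, a mouse colon carcinoma line transplanted into C57BL/6 mice that carry the human CTLA-4 gene. Viable cells were sorted for the pan-leukocyte protein CD45 and profiled as single cells with fixed-RNA probes, and a UMI (unique molecular identifier) counts 1 captured molecule.

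There were 4 libraries, 1 per group, each pooled from 11 mice on day 8, after 3 treatments. The labels give a tumor size near 100 mm3. The isotype library came from mice given control hIgG1 at 10 mg/kg. The combination library came from mice given ipilimumab (αCTLA-4) at 10 mg/kg with AT130-2 mIgG1-N297A at 20 mg/kg, an antibody against the inhibitory Fc receptor FcγRII whose Fc part is mutated so that it hardly engages Fc receptors (αFcγRII). The article gives fewer tumors per group, an earlier day, smaller tumors and lower doses of both therapeutic antibodies than the labels. Its tumor size is that at the start of treatment. For both single-antibody libraries the title and the treatment field name opposite antibodies. They are therefore called the library titled anti-human CTLA-4 and the library titled anti-mouse FcγRII, and nothing is said of either antibody alone. All 4 libraries carry the same batch label, so no batch could be compared.

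With 1 library per group there was no replicate check and no test between treatments. A level is given in CPM, the number of UMIs of a gene for every 1000000 UMIs of the cell class in that library, with an exact 95% Poisson interval. A ratio between libraries has an exact conditional binomial interval. Both cover counting error only, not variation between mice, tumors or library preparations. A gene was counted as lower or higher past a fold of 1.5, and for such counts it needed at least 100 UMIs over the 4 libraries. Probes capture different transcripts with different efficiency, so levels are compared between libraries and cell types within a gene, not between genes. Lists of 4 values below run in the order isotype, titled anti-human CTLA-4, titled anti-mouse FcγRII and combination.

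Tissue macrophages are maintained by local signals in the organ they settle in, and many take up proteins, lipids and dying cells through scavenger and lectin receptors. In tumors, macrophages with such genes lie beside others that arise from blood monocytes, and expression of the genes can also be gained by monocyte-derived cells. Folr2 encodes a folate receptor, Mrc1 the mannose receptor CD206 and Cd163 the scavenger receptor for haptoglobin-bound hemoglobin. Fcrls encodes an Fc receptor-like protein with a scavenger receptor domain, and Gpr34 is a G protein-coupled receptor for lysophosphatidylserine. Cbr2 is a carbonyl reductase and Igf1 a secreted growth factor. Tmem176a and Tmem176b encode related membrane proteins of intracellular vesicles, and Ms4a7 a membrane protein of the MS4A family.

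The 10 genes lie apart in the genome except for Tmem176a (chr6:48840919-48847071, plus strand) and Tmem176b (chr6:48833818-48841496, minus strand), which are neighbours with overlapping 5′ ends and share 578 bases in GRCm38 (mm10) with GENCODE vM21. Each gene identifier in the count files was found in this annotation. Promoters of 4 genes are shown because these genes took different courses in the combination: Cbr2 and Mrc1 were lower than in every other library, Folr2 was not lower than in the isotype library, and Ms4a7 was lower by less than the fold used. The sequences are from RefSeq for GRCm38.p6, end at the base before the first annotated exon, run 5′ to 3′ on the gene's strand, and carry in capitals any match to GAGGAA, a core bound by the myeloid factor PU.1, or to TGCTGA, a half-site of MAF factors, on either strand (TTCCTC and TCAGCA being the reverse strand forms).
Cbr2, chr11:120732115-120732271, minus strand: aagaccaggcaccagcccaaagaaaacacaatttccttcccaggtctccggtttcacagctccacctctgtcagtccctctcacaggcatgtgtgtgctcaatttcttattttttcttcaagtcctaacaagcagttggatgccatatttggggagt
Mrc1, chr2:14229164-14229391, plus strand: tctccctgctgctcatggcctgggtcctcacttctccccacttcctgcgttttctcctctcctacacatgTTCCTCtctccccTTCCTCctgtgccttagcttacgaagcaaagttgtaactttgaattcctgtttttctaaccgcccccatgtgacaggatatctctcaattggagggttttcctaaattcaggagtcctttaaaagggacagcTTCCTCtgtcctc
Folr2, chr7:101857195-101857440, minus strand: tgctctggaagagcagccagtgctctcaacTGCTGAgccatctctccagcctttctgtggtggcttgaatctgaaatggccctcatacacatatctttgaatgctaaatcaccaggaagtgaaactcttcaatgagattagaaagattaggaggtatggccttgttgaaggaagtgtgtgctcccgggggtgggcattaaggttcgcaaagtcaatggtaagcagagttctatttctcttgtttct
Ms4a7, chr19:11336147-11336396, minus strand: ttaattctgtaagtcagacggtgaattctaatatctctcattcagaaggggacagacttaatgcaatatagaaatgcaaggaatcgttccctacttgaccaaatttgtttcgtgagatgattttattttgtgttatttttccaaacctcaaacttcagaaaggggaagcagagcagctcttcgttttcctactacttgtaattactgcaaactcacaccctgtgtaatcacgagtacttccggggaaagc

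The Mrc1 stretch held 3 matches to GAGGAA and the Folr2 stretch 1 match to TGCTGA, while the Cbr2 and Ms4a7 stretches held neither. Over the 250 bases before the start of transcription, 9 of the 10 genes had an entry, all but Gpr34. Some genes have several entries with different starts. GAGGAA was found in at least 1 entry of 6 genes, Mrc1, Fcrls, Igf1, Cbr2, Tmem176a and Tmem176b, where that of Cbr2 fell in the exonic part not shown and the entries of both Tmem176 genes overlap. TGCTGA was found for Fcrls and Folr2. Of 27025 genes with entries, 25.9% held GAGGAA and 18.0% TGCTGA in at least 1, and a match is a run of letters, not a bound site.

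The 4 libraries held 6097 to 8173 barcodes and 129151823 to 196362818 UMIs, with medians of 14836 to 19115 UMIs per barcode. After filters and removal of 1409 likely doublets, 26785 cells remained in 29 clusters, and the 10 genes were withheld from the features used for clustering. The macrophage class (9 clusters) held 3519, 2941, 3430 and 3381 cells, which was 45.5%, 48.6%, 59.4% and 46.8% of the libraries. The monocyte class (2 clusters) held 1042, 681, 433 and 675 cells, and the dendritic cell class (a Cd209a and Ccl17 cluster, and a Ccr7 and Fscn1 cluster) 248, 150, 100 and 127. Cluster 22, with 31, 56, 23 and 27 cells, was led over the libraries summed by Retnla, Saa3, Lyve1, Ednrb, Cd209f and Cd209g. It is called the Lyve1 and Cd209f cluster. Cluster 3 (Ccl17, Ccl24 and MHC class II genes) stayed unnamed, and 3 clusters with both lymphocyte and macrophage markers were kept out of the classes. They made up 14.7%, 7.15%, 10.4% and 13.4% of the cells. Among them, cluster 13 (814 cells) was led by cell division genes such as Cdc20 and Ube2c. Its mean log2 differences for T cell and macrophage markers, 0.718 and 0.675, were both near the threshold of 0.5. No full barcode was shared between libraries, while the leading bases of 712 to 1148 barcodes were shared by each pair. The article describes barcoded probe sets and loading of pooled samples, so unshared full barcodes do not show separate captures.

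The label of resident-like genes fitted the members unequally. Over the 4 libraries summed, 5 of the 10 were highest in the small Lyve1 and Cd209f cluster, a pair of surface markers of perivascular and interstitial resident macrophages. Folr2 reached 824 CPM there, against 284 in cluster 0, the next highest. Cluster 0 was the largest macrophage cluster, and the transcripts that led it were the immunoglobulin genes Igha, Igkc and Jchain, followed by Gas6, Timp2, Stab1 and Pltp. Cbr2 stood at 737 against 232, Mrc1 at 1981 against 844 and Igf1 at 104 against 65.8 in the same pair of clusters. In that sum Cd163 lay mostly in the Lyve1 and Cd209f cluster, which held 87.3% of the Cd163 UMIs of all mononuclear phagocytes with 0.725% of their cells. Its level was 394 there and at most 7.01 in any other of the 15 phagocyte clusters. The sum leans on the library titled anti-human CTLA-4, with 56 of the 137 cells and the highest Cd163 level of the cluster. In isotype alone most Cd163 UMIs of these phagocytes lay outside the cluster, and the dendritic cells held more of them than the cluster did.

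Fcrls, Gpr34 and Ms4a7 had another distribution. They were highest in cluster 0, at 1354, 69.9 and 2388 CPM, and Ms4a7 stood at 383 in the Lyve1 and Cd209f cluster, below each of the 9 macrophage clusters (474 to 2388). Tmem176a and Tmem176b peaked outside macrophages, in the Ccr7 and Fscn1 dendritic cluster (356 and 500), with the Lyve1 and Cd209f cluster second (271 and 456). In monocytes they were higher in cluster 9, the Ace and Nr4a1 cluster of nonclassical monocytes (104 and 207), than in cluster 5, the Plac8 and Chil3 cluster (29.5 and 55.6). Cluster 14, led by Mmp12 and Nos2 (inducible nitric oxide synthase), was the lowest of the 9 macrophage clusters for 8 of the 10 genes, with 28.0 for Folr2, 5.92 for Cbr2, 65.4 for Fcrls, 7.03 for Gpr34, 230 for Mrc1, 10.2 for Tmem176a, 17.2 for Tmem176b and 474 for Ms4a7. Igf1 did not share that pattern: at 40.4 it came after only cluster 0 and cluster 1 (54.3) among the macrophage clusters, the latter led by heat shock genes and Hmox1. The combination gave 362 of the 757 cells of cluster 14 but 758 of the 3290 of cluster 0. The summed levels can thus partly reflect the mix of libraries.

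**Figure D1:**
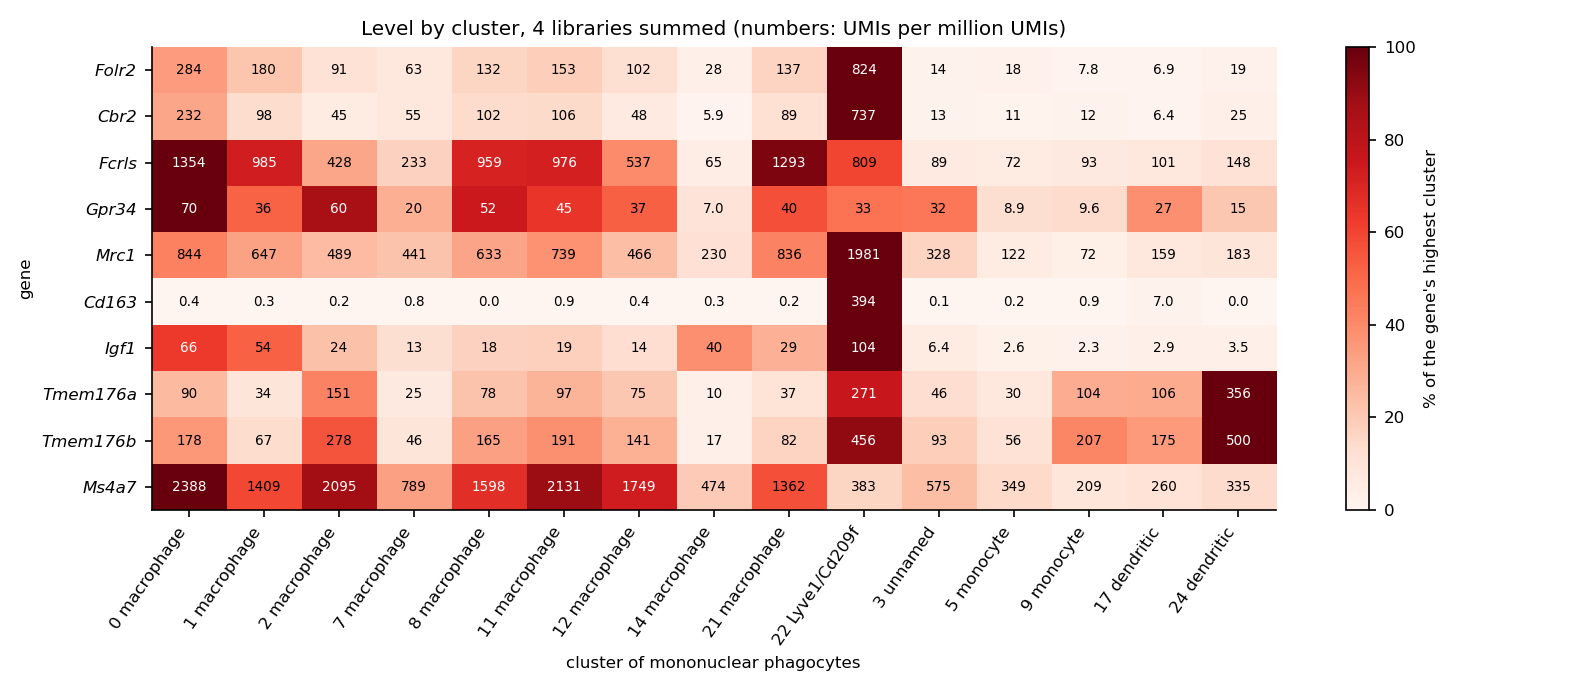
Level of each gene in each cluster of mononuclear phagocytes, with the 4 libraries summed. Rows are genes, columns are clusters with their class, the printed numbers are CPM of the cluster, and colour is the percent of the gene's highest cluster. Folr2, Cbr2, Mrc1, Cd163 and Igf1 are darkest in the Lyve1 and Cd209f cluster, Fcrls, Gpr34 and Ms4a7 in cluster 0, and both Tmem176 genes in dendritic cluster 24.

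In the macrophage class, 6 of the 10 genes were lower in the combination than in each of the other 3 libraries by the fold of 1.5: Cbr2, Fcrls, Gpr34, Mrc1, Tmem176a and Tmem176b. Of all 11613 genes with enough UMIs in macrophages, 3.07% met the same rule. Against the isotype library alone 7 of 10 were lower, Cd163 being the seventh, with 7.04% of all genes. Against the library titled anti-human CTLA-4 the count was 6 of 10 (4.89% of all genes), and against the library titled anti-mouse FcγRII 8 of 10 (6.29%), with Folr2 and Cd163 added to the 6. The median log2 ratio of combination over isotype was -0.91 for the 10 genes and -0.12 for all genes. The genes were listed because such differences had been seen in these libraries, so these counts describe the libraries and do not support a direction.

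Fcrls showed the widest gap among the uptake and sensing receptors. Its macrophage levels were 1124, 875, 1322 and 259 CPM, from 83162, 59098, 104323 and 23770 UMIs. The combination was the only low library, and no Poisson interval of another library came near it. The ratio of combination over isotype was 0.231 (0.227 to 0.234), over the library titled anti-human CTLA-4 0.296 and over the library titled anti-mouse FcγRII 0.196.

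Gpr34 was at 67.2, 59.7, 61.5 and 17.4 CPM. The 3 other libraries lay close together, with overlapping intervals for both titled libraries (57.8 to 61.5 and 59.8 to 63.3), and the combination stood apart. Its ratio to isotype was 0.260 (0.245 to 0.275).

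Mrc1 levels were 778, 768, 657 and 406. The isotype and titled anti-human CTLA-4 libraries overlapped within counting error (772 to 785 and 762 to 775), the library titled anti-mouse FcγRII was somewhat lower and the combination lowest. Combination over isotype was 0.521 (0.514 to 0.528), a smaller gap than for Fcrls or Gpr34.

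Folr2 behaved differently from Mrc1. It stood at 131, 152, 226 and 138, so that the combination was near the isotype library, with a ratio of 1.06 (1.03 to 1.09), and only the library titled anti-mouse FcγRII was high. Against that library the combination was lower, at 0.611, but it was not lower than the isotype library.

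Cd163 was close to the limit of counting in macrophages, with 17, 9, 70 and 14 UMIs, or 0.230, 0.133, 0.887 and 0.153 CPM. The ratio of combination over isotype was 0.664 with an interval of 0.303 to 1.43, so a difference from isotype was not detectable at this depth. Its direction turned in 7 of the 12 other processing settings that gave a value. Its UMIs in macrophages in the library titled anti-mouse FcγRII were more than in the other libraries.

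Cbr2, the carbonyl reductase, had macrophage levels of 86.3, 101, 232 and 47.2. The library titled anti-mouse FcγRII was highest and the combination lowest, with no overlap between any intervals. Combination over isotype was 0.547 (0.526 to 0.569), and over the library titled anti-mouse FcγRII 0.204.

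Igf1, the growth factor, was at 28.0, 36.2, 48.3 and 35.8 CPM. The isotype library was lowest, the combination and the library titled anti-human CTLA-4 overlapped (34.6 to 37.0 and 34.8 to 37.7), and the library titled anti-mouse FcγRII was highest. Combination over isotype was 1.28 (1.21 to 1.35), short of the fold used.

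Tmem176a levels were 108, 84.8, 114 and 27.0, and Tmem176b levels were 205, 166, 221 and 58.1. In both the combination alone was low and the order of the other 3 libraries was the same. The ratios to isotype were 0.249 (0.238 to 0.261) and 0.284 (0.275 to 0.293). Ms4a7 levels were 1833, 1863, 2147 and 1441. The combination was again lowest, but the ratio to isotype was 0.786 (0.780 to 0.792) and to the libraries titled anti-human CTLA-4 and anti-mouse FcγRII 0.774 and 0.671, none past the fold.

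**Figure D2:**
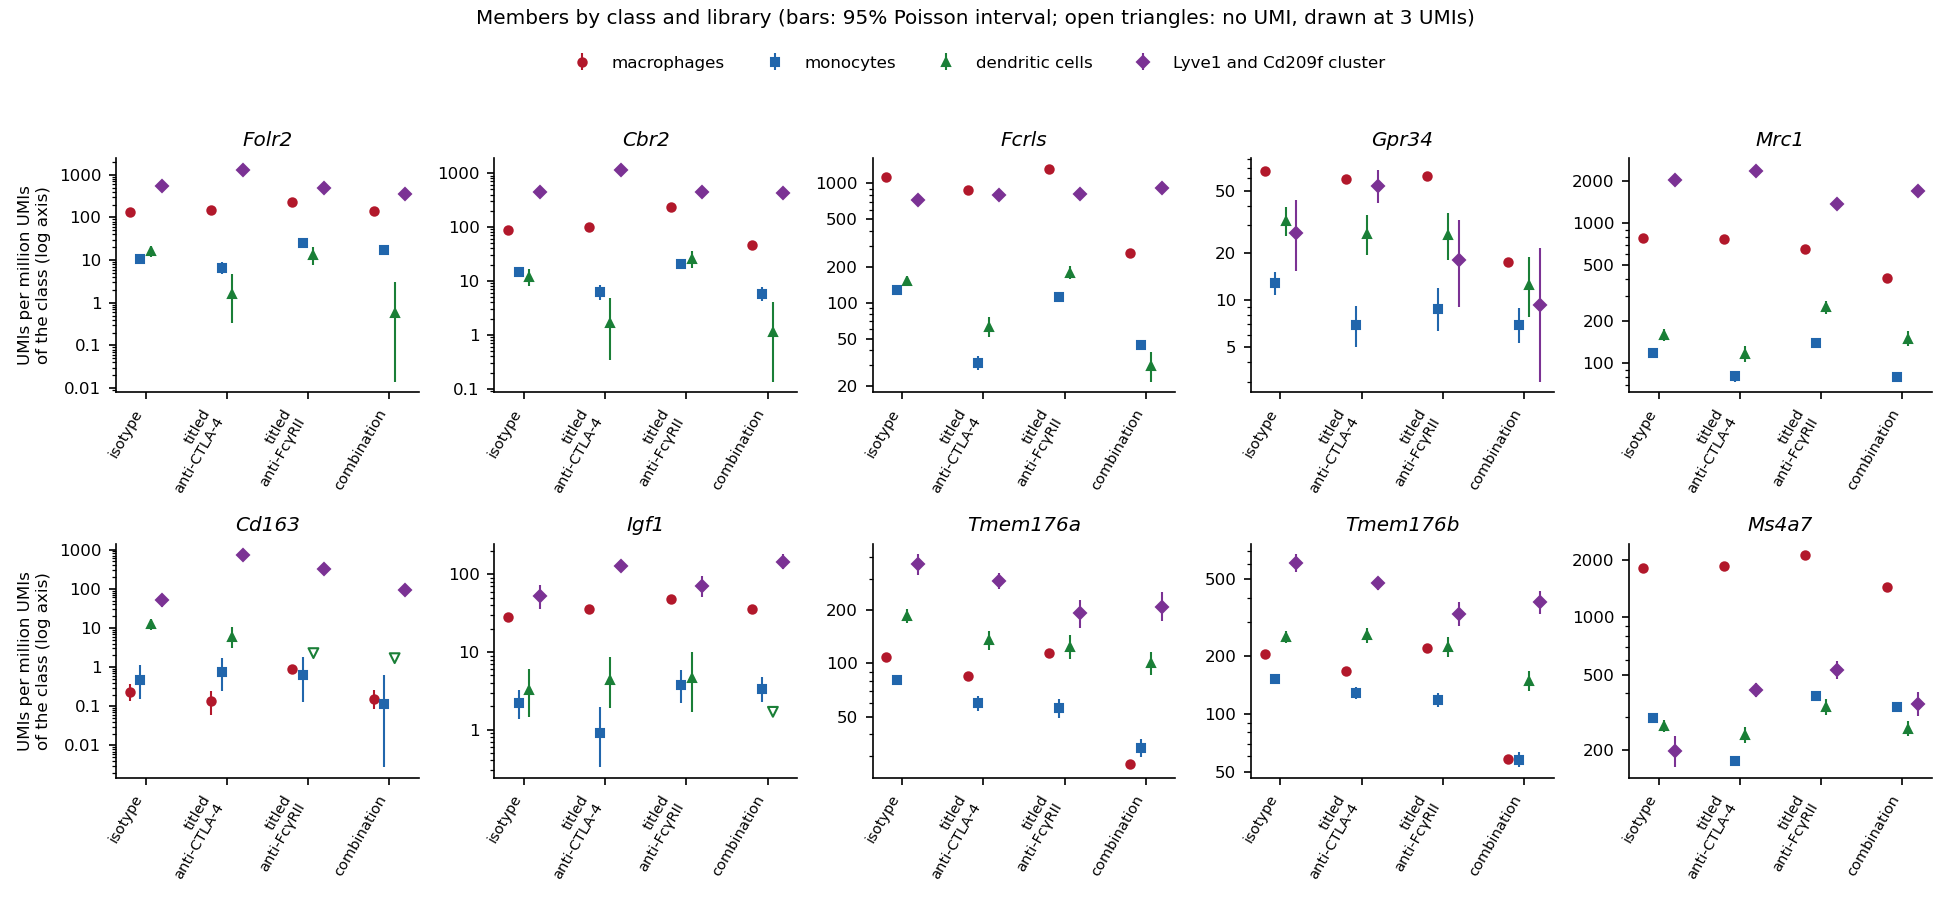
Levels of the 10 genes in macrophages (circles), monocytes (squares), dendritic cells (triangles) and the Lyve1 and Cd209f cluster (diamonds) in each library. Each panel is a gene, the horizontal axis is the library, the vertical axis is CPM of the class on a log axis, bars are 95% Poisson intervals and open triangles mark classes with no UMI, drawn at 3 UMIs. In macrophages Fcrls stands at 1124 in isotype and 259 in the combination and Gpr34 at 67.2 and 17.4, while Folr2 stands at 131 and 138.

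Neither titled library by itself showed the pattern of the combination. Compared with isotype, 1 gene was lower past the fold in macrophages of the library titled anti-human CTLA-4, Cd163 with 9 against 17 UMIs (4.22% of all genes), and none was lower in those of the library titled anti-mouse FcγRII (6.34% of all genes). In the latter, 4 were higher (1.37% of all genes): Folr2 at 1.73, Cbr2 at 2.69, Cd163 at 3.86 and Igf1 at 1.73 times the isotype level. These comparisons share the isotype library.

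The share of macrophages with at least 1 UMI, thinned to 7988 UMIs per cell, gave the same picture for the genes with the widest gaps. For Fcrls it was 73.3%, 67.1%, 81.5% and 38.5%, and without thinning 74.1%, 69.3%, 83.4% and 46.4%. For Gpr34 it was 29.6%, 27.5%, 27.0% and 9.66% (unthinned 41.9%, 42.5%, 41.7% and 20.9%), and for Tmem176b 44.4%, 37.2%, 46.9% and 18.1% (unthinned 26.7% in the combination and at least 43.4% elsewhere). Folr2 was seen in 34.6%, 36.5%, 51.1% and 33.9% of thinned macrophages (unthinned 41.5%, 44.6%, 60.4% and 44.6%). Thinning left out 498, 287, 268 and 272 shallower macrophages. The median macrophage held 17356 to 23102 UMIs and the median T cell 4640 to 6508.

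Lymphocytes and neutrophils were used to read the background of molecules that did not come from the cell itself. The T cell class held 2 clusters that differed in it. Cluster 16 (Ifng, Cd8a and Lag3), with 578 cells and a median of 15421 UMIs, held 8349 of the 9836 Fcrls UMIs and 17099 of the 21174 Ms4a7 UMIs of T cells. Cluster 6 (Cd4, Cd5 and Cd3d), with 1363 cells and a median of 4308 UMIs, held the others and is the one compared here, beside neutrophils. At an equal depth of 2358 UMIs, an Fcrls UMI was held by 6.35% of cluster 6 (5.04% to 7.92%), 23.3% of cluster 16, 4.68% of neutrophils and 49.7% of macrophages. For Ms4a7 cluster 6 stood at 15.5%, neutrophils at 13.2% and macrophages at 81.5%, and for Mrc1 at 6.38%, 6.22% and 56.2%. Folr2 was seen in 2.06% of cluster 6, 1.12% of neutrophils and 20.7% of macrophages, and Cbr2 in 1.24%, 0.941% and 12.1%. Macrophages were thus far above both kinds of cell for these 5 genes. These shares pool all libraries, and the neutrophils numbered 130, 98, 60 and 477. Most neutrophils therefore came from the combination. There their Fcrls, Mrc1 and Tmem176b were lower than in each other library past the fold, while Ms4a7 was not. The neutrophil shares can thus understate the background of the other libraries.

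For Gpr34 the T cells did not measure background alone, and for Tmem176a and Tmem176b they may not have. In cluster 6 these genes stood at 9.77%, 13.7% and 19.6% of the Ms4a7 level, against 2.74%, 4.48% and 8.73% in macrophages. In neutrophils they stood at 2.75%, 8.16% and 18.0%, so for Tmem176b this ratio does not set cluster 6 apart from neutrophils. Fcrls and Mrc1 stood lower against Ms4a7 in cluster 6 (36.5% and 20.9%) than in macrophages (48.0% and 35.3%). Against neutrophils, at the same depth, the shares of cells with a UMI were 0.572% and 9.16% of macrophages for Gpr34, 1.30% and 13.2% for Tmem176a, and 2.79% and 21.1% for Tmem176b.

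The background differed between libraries as well. In cluster 6, Fcrls was at 144, 76.4, 572 and 36.2 CPM, Mrc1 at 101, 52.3, 193 and 78.8, and Cbr2 at 15.4, 5.85, 64.0 and 4.48. The combination was below isotype for these genes. It was above isotype for Folr2 (10.6, 14.6, 69.7 and 25.4) and Ms4a7 (322, 319, 959 and 398). With the level of cluster 6 in each library taken away from the macrophage level, an alternative chosen after seeing the data, the ratios to isotype were 0.227 for Fcrls, 0.603 for Cbr2 and 0.482 for Mrc1. Fcrls and Cbr2 remained lower than in each other library past the fold, but Mrc1, at 327 against 464 in the library titled anti-mouse FcγRII, did not. Gpr34 and Tmem176a in the combination came to 0 and Tmem176b to 1.75, so that no ratio is read for these genes. With the level of the whole T cell class taken away the ratios were 0.223 for Fcrls, 0.495 for Cbr2 and 0.519 for Mrc1, and Gpr34 and Tmem176a again came to 0. Cells of cluster 6 held a median of 4308 UMIs, fewer than macrophages, so the same stray molecules weigh more in their CPM. Subtraction of CPM can therefore take away too much.

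**Figure D3:**
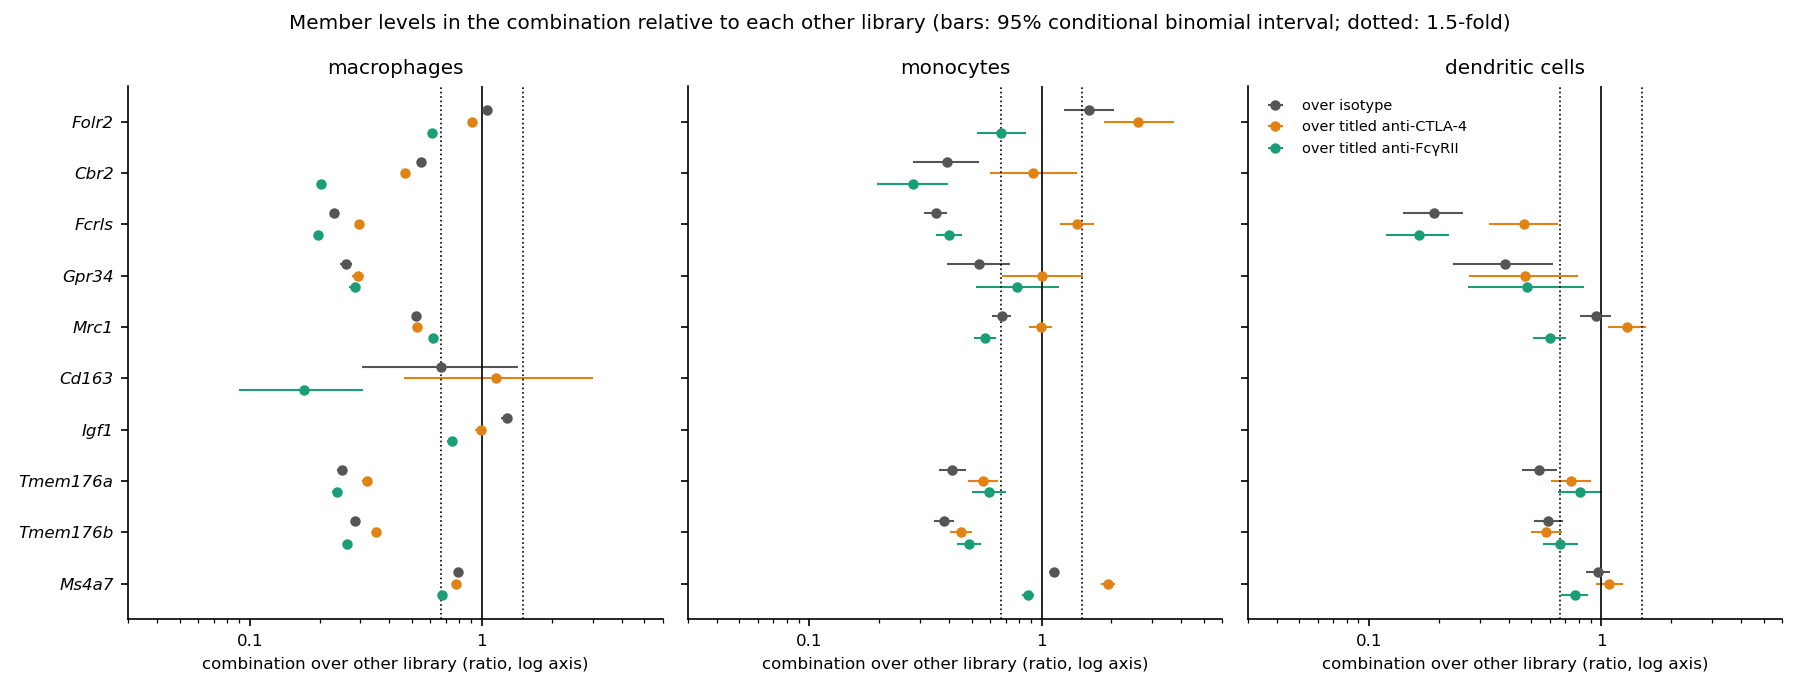
Ratio of the level in the combination to the level in each other library, for macrophages, monocytes and dendritic cells. The horizontal axis is the ratio on a log axis, rows are genes, colours are the library compared with, bars are 95% conditional binomial intervals and dotted lines mark 1.5-fold either way. In macrophages Fcrls (0.231), Tmem176a (0.249), Gpr34 (0.260) and Tmem176b (0.284) lie farthest below isotype, and Folr2 (1.06) and Igf1 (1.28) lie above it.

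The lower levels in macrophages were present inside the clusters. Of the 9 macrophage clusters, Fcrls, Gpr34, Mrc1, Tmem176a and Tmem176b were lower in the combination than in isotype past the fold in 9 of 9, where 3.42% to 12.8% of all genes were. The within-cluster ratios ran from 0.055 to 0.335 for Fcrls, from 0.133 to 0.398 for Gpr34, from 0.394 to 0.660 for Mrc1, from 0.057 to 0.421 for Tmem176a and from 0.098 to 0.476 for Tmem176b. Fcrls was at its lowest ratio in the Mmp12 and Nos2 cluster. Cbr2 was lower past the fold in 6 of 9 clusters, with ratios of 0.289 in the interferon cluster 12 (Cmpk2, Ifit3, Rsad2) to 1.06 in cluster 7 (Spp1, Thbs1, Fn1 and Arg1). Folr2 was past the fold in 0 of 9, with ratios from 0.676 in cluster 1 upward, and Igf1 was higher in 4 of 9, with ratios from 0.862 to 2.97. Ms4a7 was below 1 in 9 of 9 clusters and past the fold in 2. No cluster had enough Cd163 UMIs for a count.

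**Figure D4:**
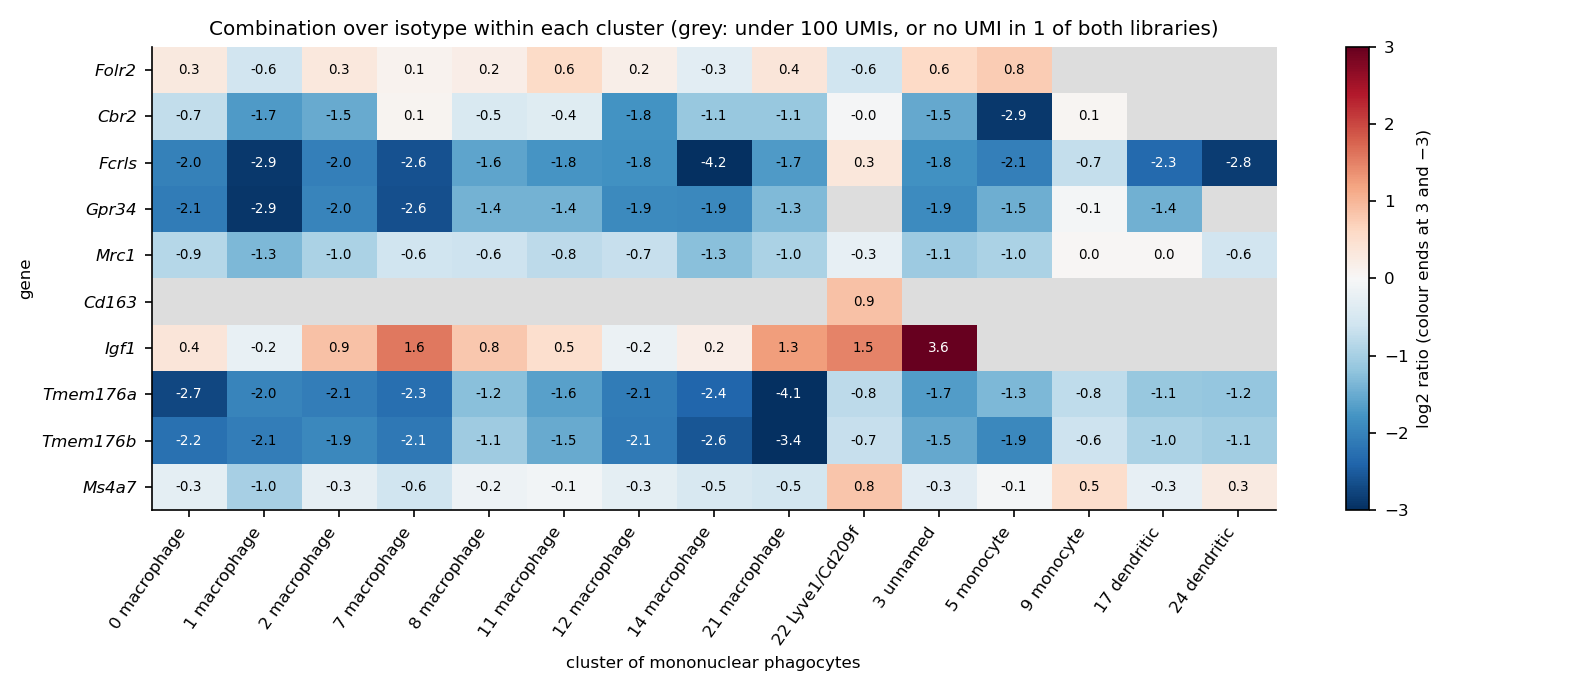
Ratio of combination over isotype within each cluster of mononuclear phagocytes. Rows are genes, columns are clusters with their class, colour is the log2 ratio from blue (lower in the combination) to red (higher), and grey marks genes with under 100 UMIs in a cluster or no UMI in either library. Fcrls, Gpr34, Mrc1 and both Tmem176 genes are blue in all 9 macrophage clusters, and Folr2 and Igf1 are not. For Fcrls in the Lyve1 and Cd209f cluster the ratio before the log2 is 1.27.

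The macrophage clusters themselves differed in size between libraries. The Mmp12 and Nos2 cluster held 3.33%, 4.86%, 3.55% and 9.46% of macrophage UMIs, and cluster 21, led by Hspa1a and Hspa1b, 3.31%, 2.61%, 1.60% and 0.772%. To separate such shifts from changes within clusters, the isotype levels of each cluster were combined with the cluster shares of the combination. The level of Fcrls would then have been 0.921 of isotype, that of Cbr2 0.928, of Mrc1 0.953, of Gpr34 0.976, of Tmem176b 1.01 and of Tmem176a 1.02. With isotype shares and the combination's levels within clusters the ratios were 0.248 for Fcrls, 0.576 for Cbr2, 0.542 for Mrc1, 0.264 for Gpr34, 0.279 for Tmem176b and 0.243 for Tmem176a, close to those measured. For Folr2 the split was 0.919 from shares and 1.12 from levels. Leaving out each macrophage cluster in turn moved the ratio of Fcrls only between 0.211 and 0.247, and that of Cbr2 between 0.508 and 0.582.

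**Figure D5:**
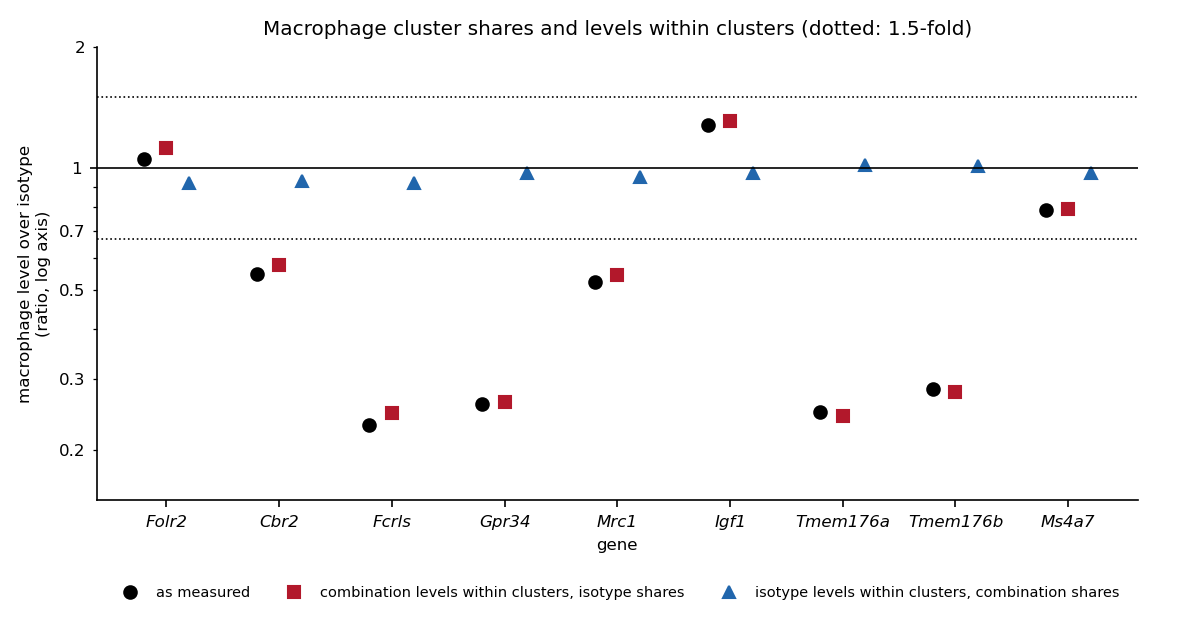
Macrophage level in the combination relative to isotype for each gene (log axis), as measured (circles), with only the levels within clusters taken from the combination (squares) and with only the cluster shares taken from it (triangles). Dotted lines mark 1.5-fold. For Fcrls the values are 0.231, 0.248 and 0.921, so the squares follow the circles and the triangles stay near 1.

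In monocytes, 5 of the 8 genes with enough UMIs were lower in the combination than in isotype past the fold, against 5.28% of all genes: Cbr2, Fcrls, Gpr34, Tmem176a and Tmem176b. Of these, Cbr2, Fcrls and Gpr34 were not set apart from background in monocytes, as given below. Compared with each of the other 3 libraries, 2 were lower, Tmem176a and Tmem176b (0.933% of all genes). Tmem176a stood at 80.6, 59.5, 55.8 and 33.3 CPM and Tmem176b at 151, 128, 118 and 57.7. The combination was lowest in both, with ratios to isotype of 0.412 (0.360 to 0.471) and 0.382 (0.345 to 0.422). Cluster 9, where both genes were higher, held 537 of the 1042 monocytes in isotype and 216 of 675 in the combination. Within cluster 9 the ratios were 0.594 and 0.646, and within cluster 5 they were 0.395 and 0.260.

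Fcrls in monocytes was at 127, 31.4, 112 and 44.5, so that the library titled anti-human CTLA-4 was lower than the combination. Folr2 was higher in the combination than in isotype (6.27% of all genes), at 10.7, 6.60, 25.5 and 17.1 with a ratio of 1.60 (1.25 to 2.06), and Ms4a7 stood at 296, 174, 384 and 335. At the depth of 2358 UMIs the shares of monocytes with a UMI were 1.10% for Folr2, 1.55% for Cbr2, 4.43% for Fcrls, 1.12% for Gpr34, 7.96% for Mrc1 and 16.2% for Ms4a7. Each interval overlapped that of neutrophils, so these monocyte values are not set apart from background. Overlap does not show that they are background alone. The level of Fcrls was 27.2% of that of Ms4a7 in monocytes and 52.6% in neutrophils. Tmem176a (10.2% of monocytes, 1.30% of neutrophils) and Tmem176b (17.3% and 2.79%) were above neutrophils, though most neutrophils came from the combination.

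In dendritic cells, 6 genes had enough UMIs and 4 of them were lower in the combination than in isotype past the fold (9.92% of all genes): Fcrls, Gpr34, Tmem176a and Tmem176b. Fcrls was not set apart from background in these cells, as given below. Of the 6, Fcrls, Gpr34 and Tmem176b were lower than in each of the other 3 libraries (3.78% of all genes). Tmem176b was at 251, 256, 223 and 148, a ratio to isotype of 0.592 (0.512 to 0.683). Tmem176a was at 185, 135, 125 and 100 (0.541, 0.454 to 0.643). The shares of dendritic cells with a UMI differed less between libraries, at 39.9%, 38.4%, 37.4% and 36.7% for Tmem176a when thinned to 5359 UMIs. The Ccr7 and Fscn1 cluster, where both Tmem176 genes peaked, held 38 of 248 dendritic cells in isotype and 35 of 127 in the combination. Levels and shares of the whole class can thus partly reflect this mix.

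Fcrls in dendritic cells stood at 154, 63.2, 179 and 29.3, a ratio of combination over isotype of 0.191 (0.140 to 0.255), and Gpr34 at 32.1, 26.4, 25.8 and 12.4 (0.387, 0.231 to 0.622). Mrc1 (159, 116, 251 and 150) and Ms4a7 (268, 240, 337 and 260) were near the isotype level in the combination. At 2358 UMIs per cell, 25.7% of dendritic cells held a UMI of Tmem176a and 32.8% of Tmem176b, well above neutrophils (1.30% and 2.79%). The shares for Fcrls (5.40%), Ms4a7 (11.6%), Folr2 (0.831%) and Cbr2 (0.715%) had intervals that overlapped those of neutrophils and are not set apart from background. Gpr34 (4.14%) was above neutrophils (0.572%) and below T cell cluster 6 (7.58%), and Mrc1 (14.0%) was above both (6.22% and 6.38%). Because most neutrophils came from the combination, their shares can understate the background of the other libraries. Folr2 and Cbr2 had 46 and 33 UMIs in the dendritic cells of the isotype library and 1 and 2 in those of the combination, and Cd163 35, 11, 0 and 0. The dendritic cells with the most Cd163 were in the Cd209a and Ccl17 cluster, at 7.01 CPM over all libraries. The 0 UMIs of the combination do not show an absence of Cd163, since 3 UMIs in that class would be only 1.69 CPM.

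In the Lyve1 and Cd209f cluster, where Folr2, Cbr2, Mrc1 and Cd163 were highest, the members did not move as in the macrophage class. None of the 9 genes with enough UMIs was lower in the combination than in each other library (3.79% of all genes). Fcrls stood at 728, 793, 819 and 923, so that the combination was highest, with a ratio to isotype of 1.27 (1.11 to 1.45) where the macrophage class had 0.231. Cbr2 was at 447, 1148, 442 and 434 and Mrc1 at 2033, 2367, 1380 and 1707, both within the fold of isotype. Against isotype, 3 were lower (12.8% of all genes): Folr2 (534, 1326, 493 and 350), Tmem176a (363, 292, 192 and 209) and Tmem176b (610, 476, 331 and 380). Another 3 were higher (8.61%): Cd163 (50.4, 719, 329 and 92.7), Igf1 (52.1, 128, 70.4 and 146) and Ms4a7 (197, 415, 530 and 349).

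The library titled anti-human CTLA-4 stood out in this cluster, with 56 of its 137 cells and the highest Folr2, Cbr2, Mrc1 and Cd163. It also held the highest levels of other genes of resident macrophages there, with Lyve1 at 363, 944, 334 and 273 and Cd209f at 52.1, 502, 4.91 and 130. Monocyte markers summed to 11024, 8889, 21584 and 10697 CPM in this cluster. The cells under its name may thus differ between libraries, which limits the comparison of member levels there. With 23 to 56 cells per library, these levels rest on few cells, and intervals from UMIs do not cover the spread between them.

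Cluster 3, the unnamed cluster with Ccl17, Ccl24 and MHC class II genes, followed the macrophage class for most members. Of 9 genes, 6 were lower in the combination than in isotype (6.36% of all genes), Cbr2, Fcrls, Gpr34, Mrc1, Tmem176a and Tmem176b, with ratios of 0.269 for Gpr34 to 0.472 for Mrc1. In the same cells Folr2 (1.52) and Igf1 were higher past the fold (4.61% of all genes). At 2358 UMIs per cell the shares of cluster 3 with a UMI of Folr2 (1.84%) and Cbr2 (1.77%) had intervals that overlapped those of T cell cluster 6 and neutrophils, and that of Fcrls (8.54%) overlapped the interval of cluster 6, so these levels are not set apart from background. Mrc1 (32.6%) and Ms4a7 (39.9%) were above it. Igf1 rested on 14 UMIs in isotype and 161 in the combination, a ratio of 12.3 (7.14 to 23.1).

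Over all mononuclear phagocytes, 7 of 10 genes were lower than in isotype (7.94% of all genes), the same 7 as in macrophages. These cells include cluster 3 and the Lyve1 and Cd209f cluster. Cd163 did not run alike in them. In macrophages its difference from isotype was not detectable, and in the Lyve1 and Cd209f cluster it was higher past the fold. The dendritic cells of the combination held no Cd163 UMI.

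Some members were high in cells that are not phagocytes. Gpr34 reached 190 CPM in cluster 18, a cluster of NK cells or ILC1 led by the granzymes Gzmc, Gzmd and Gzmg, 179 (44 UMIs) in basophils and 76.0 in mast cells, each above the 69.9 of its highest phagocyte cluster. In cluster 18 the level of Gpr34 was 147% of that of Ms4a7, against 2.74% in macrophages and 6.93% in the other NK cell cluster. Tmem176a and Tmem176b stood at 104 and 150 in cluster 18. The level of Fcrls was 52.3% of that of Ms4a7 in B cells, 52.6% in neutrophils and 48.8% in T cell cluster 16, near the 48.0% of macrophages, but 37.8% in cluster 18 and 27.2% in monocytes.

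The 10 genes varied together to unequal degrees. Across 52 profiles of a phagocyte cluster in a library (at least 50 cells each), Pearson's r between Tmem176a and Tmem176b was 0.98. Within Folr2, Cbr2, Fcrls, Gpr34, Mrc1 and Ms4a7 it ran from 0.59 (Folr2 with Gpr34) to 0.89 (Cbr2 with Fcrls). Tmem176a was close to unrelated to Folr2 (0.11) and Mrc1 (0.20). Against the mean of the other members, r was 0.90 for Fcrls, 0.88 for Cbr2, 0.57 for Igf1, 0.50 for Tmem176b, 0.47 for Tmem176a and 0.16 for Cd163. Profiles of a library share its depth and background and are not independent. Of the Lyve1 and Cd209f cluster, only the library titled anti-human CTLA-4 had enough cells for a profile. The values for Cd163, whose summed UMIs lay mostly in that cluster, therefore lean on a single profile. The Ccr7 and Fscn1 dendritic cluster, where both Tmem176 genes peaked, gave none. Among single macrophages within a library, Tmem176a and Tmem176b correlated at 0.77 to 0.85 and Fcrls and Mrc1 at 0.56 to 0.65.

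Of 10013 genes, the 8 most like the mean of the members over the same profiles were Gas6 (r = 0.94), Slco2b1, Camk1, Tpbgl, Nxpe5, Tgfbr2, Pltp and Prune2 (0.89). These profiles include those of the combination, so the levels and ratios below follow in part from how the genes were picked. Gas6, a ligand of the MERTK and AXL receptors for dying cells, was at 93.2, 98.7, 97.4 and 34.5 in macrophages. Slco2b1, an organic anion transporter, had a ratio of combination over isotype of 0.154, Nxpe5 0.469, Camk1 0.643, Tgfbr2 0.713 and Pltp 0.813. The genes least like the members were Mcemp1 (r = -0.90), Malt1 and Il1b, and Il1b, the inflammatory cytokine, was at 532 in macrophages of the combination and 292 in those of isotype. Single members had other neighbours: Ms4a14 for Ms4a7 (0.97), Timp2 for Folr2 (0.94) and Igf1 (0.91), Cd209b for Cd163 (0.89), and Hfe for both Tmem176a (0.89) and Tmem176b (0.90). The value for Cd163 leans on the single profile of the Lyve1 and Cd209f cluster. Timp2 in macrophages was 387 in both the isotype and combination libraries.

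Other genes of resident-like macrophages gave a divided picture in the macrophage class. Of 30, 26 had enough UMIs, 6 were lower and 5 higher in the combination than in isotype (7.04% and 5.78% of all genes), with a median log2 ratio of -0.14 against -0.12 for all genes. Among the lower ones were Vsig4 (0.0981), Ltc4s (0.295), Gas6 (0.371), Selenop (0.480) and F13a1 (0.511). The higher ones were Marco, a scavenger receptor (8.79), the chemokines Ccl24 (5.80) and Ccl8 (3.29), Lyve1 (4.17) and Cd36 (4.11). Vsig4 was at 1.00, 0.133, 2.51 and 0.0982 CPM and Lyve1 at 0.0811, 1.60, 0.215 and 0.338. Both were thus close to the limit of counting, and the interval of the Lyve1 ratio was 1.71 to 12.2. Lyve1 was highest in the library titled anti-human CTLA-4. C1qa and C1qb, subunits of complement C1q, were at 0.908.

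Genes that macrophages share with microglia leaned lower. Of 12 with enough UMIs, 7 were lower than in isotype (7.04% of all genes), with a median log2 ratio of -0.68, and 1 higher (5.78%), Siglech, also a gene of plasmacytoid dendritic cells, at 0.162 CPM in isotype and 1.59 in the combination. P2ry12 was at 96.0, 76.6, 98.3 and 38.5 CPM, Tmem119 at 281, 244, 282 and 125, and Tgfbr1, a receptor for TGF-β, at 525, 452, 576 and 247. In each the combination was the only low library. P2ry13 (0.523) and Golm1 (0.597) were also lower past the fold, while Trem2 (0.826) and Adora3 (0.943) were not.

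The families of single members were less uniform. For the counts that follow, 7.04% of all genes were lower and 5.78% higher. In the IGF pathway, 3 of 8 genes were lower: Igfbp6 (0.490) and Igfbp4 (0.562), binding proteins of the growth factors, and Irs1 (0.597), an adaptor of the receptor. Levels of Igfbp6 (1.38 CPM in isotype and 0.676 in the combination) and Irs1 (0.730 and 0.436) were low. Igf2r, which clears IGF-2, was higher at 2.61, while Igf1r, the receptor of IGF-1, was at 1.24. Among folate receptors and carriers 1 of 7 was lower, Izumo1r, a T cell gene, at 0.222. The folate transporter Slc46a1 was at 0.729 and the folate enzyme Ggh at 1.08. In the MS4A family 2 of 9 were lower, the B cell gene Ms4a1 at 0.173 and Ms4a14 at 0.663, while Ms4a6b (0.749), Ms4a4a (0.980), Ms4a4b (1.18) and Ms4a8a (1.40) were within the fold.

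Of 12 scavenger and mannose receptors, 0 were lower and 5 higher (7.04% and 5.78% of all genes). Marco and Cd36 led, followed by Ly75 and Pla2r1, relatives of the mannose receptor (both 2.47), and Clec4n (2.20). Pla2r1 was low, at 0.460 CPM in isotype and 1.13 in the combination. Scarb1 (0.731), Stab1 (0.866) and Colec12 (0.880) were the lowest of the list. Of 8 carbonyl and xenobiotic reductases, 0 were lower and 2 higher (against the same 7.04% and 5.78%), Blvrb, a biliverdin reductase, and Nqo1, a quinone reductase (both 2.07). Dcxr (0.752), Akr1b3 (0.841) and Cbr1 (0.933) were the lowest. The relatives of Mrc1 and Cbr2 were thus not lower with them past the fold.

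Markers of other cells in the macrophage class moved with the library. The 11 neutrophil markers summed to 210, 231, 192 and 555 CPM, with 9 of 11 higher past the fold in the combination than in isotype and none at 0. The 13 T cell markers summed to 187, 90.7, 38.8 and 211 (3 higher, 1 lower) and the 7 B cell markers to 214, 145, 114 and 74.1 (7 lower). Of all genes with enough UMIs in macrophages, 5.78% were higher and 7.04% lower. The counts of these markers had no minimum of UMIs. The part of these other cells in the member differences was not tested. The summed level of 21 macrophage markers was 44212, 47798, 47717 and 40835.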

How the data were processed

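The deposited values were raw UMI counts per gene and cell barcode, made by the authors with Cell Ranger (7.2.0 per the file headers, 7.0.0 per the submitters' processing notes) on build mm10 from a probe-based fixed-RNA kit. No other normalization had been applied. Levels in CPM, ratios and shares were computed from them. Cells with at least 500 genes and at most 10% mitochondrial counts were kept, and the 5% with the highest Scrublet doublet scores per library were left out (scanpy 1.11.5), since the automatic threshold marked only 7 cells. Cells were normalised with sctransform 0.4.2 and integrated in Seurat 5.3.0 (R 4.3.3) on 3000 features less the 10 genes, with 30 components and resolution 0.8. A smaller number of cells than the 26785 kept here is stated in the article.

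Clusters were named from marker lists, by a mean log2 difference of at least 0.5. Except for macrophages, at least 3 markers of 50 CPM and 2-fold over the median cluster were also needed. A cluster with more leading genes from another list than from its own was left unnamed. These thresholds, and those for mixed clusters and the Lyve1 and Cd209f cluster, were set after the clusters had been seen. Free RNA was not removed. Intervals are exact Poisson, conditional binomial or Clopper-Pearson at 95% (scipy 1.17.1) and cover counting error only. No test between groups was made with 1 library each. The ratio and naming code was tested on simulated data.

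The members and lists were chosen with earlier results of these data known. Named genes are the members, the 3 lowest and 3 highest ratios in macrophages of each fixed list, and the genes most and least correlated with the members on log2(CPM + 1) among genes that reached 10 CPM in any profile. Other genes of those lists were named after their values were seen. A few genes of these lists are counted but not reported here by name.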

Additional observations from a re-analysis of the deposited data

Results flagged for a closer look

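Folr2 was lower in the combination than in isotype in the Lyve1 and Cd209f cluster, with a ratio of 0.656, and higher in monocytes, with a ratio of 1.60, so that the same comparison of libraries ran opposite ways in these cells. The difference between both ratios was not tested, since each group is 1 library. The cluster held 31 and 27 cells in these libraries, and the share of monocytes with a Folr2 UMI was not above that of T cell cluster 6 or neutrophils at equal depth.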

How the results depend on the processing

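Of 15 other settings, 4 were chosen after seeing the data: clusters with lymphocyte and macrophage markers added to the macrophages, clusters with Hspa1a among their leading genes left out, and the level of T cells, or of T cell cluster 6, subtracted. The number of the 10 genes lower in the combination than in isotype in macrophages, 7 as reported, was 6 or 7 except with a fold of 2, which gave 4. The number lower than in each other library, 6 as reported, ran from 4 to 6. Under both subtractions these counts include Gpr34, Tmem176a and Tmem176b, for which no ratio is read there. The 5 of monocytes, which include genes not set apart from background there, ran from 4 to 6. The 4 of dendritic cells include Fcrls, not set apart from background there. They became 2 with a fold of 2 and 8 with no minimum of UMIs, and 3 to 6 otherwise. Both rules on fold and minimum move a count by their construction.

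Cbr2, Fcrls and Mrc1 were lower than in isotype by the fold of 1.5 in 13 of 13 settings that give a ratio. Gpr34, Tmem176a and Tmem176b were lower past that fold in each of these settings without a subtraction. Both subtractions are not read for them, since T cells did not measure background alone for Gpr34 and may not have for Tmem176a and Tmem176b. There Gpr34 and Tmem176a came to 0 in the combination. The ratio of Ms4a7 ran from 0.690 to 0.852 and that of Igf1 from 1.2 to 2.57, while that of Folr2 ran from 0.935 to 1.16 and was below 1 in 3 settings. Cd163 turned to higher in the combination, at 1.13 with the members kept among the features, 1.57 with Leiden clusters and no integration, 4.09 at a resolution of 0.4, 1.23 at a resolution of 1.2, 11.2 with no doublets left out, 1.84 as a mean over cells and 2.48 with the clusters of both marker kinds added; the cause was not tested. With the level of all T cells subtracted Cd163 gave no ratio. The setting that leaves out cells with 1% or more of lymphocyte UMIs removed 1 macrophage, so it hardly differs from the reported one. No paired analysis was possible because each group is 1 library, and no library could be left out. Depth limits Cd163 in macrophages most, with 9 to 70 UMIs per library.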
